A study of Mus musculus with 13 samples.

Results

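Snai1, Snai2, Zeb1, Zeb2, Twist1, Twist2 and Prrx1, the transcription factors that drive and maintain the mesenchymal state, were examined for OCT4 and SMAD3 binding. They are 7 of the 21951 protein-coding genes of the GENCODE annotation of the mouse mm10 assembly. Each gene was taken with 10 kb on either side (its window), and every peak or site of differential binding sharing at least 1 bp with a window was counted. The rule for the windows uses no measured value. The windows ranged from 22.2 kb for Twist1 to 203.6 kb for Zeb1 and added up to 582.8 kb.

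ChIP-seq for OCT4 and SMAD3 was performed on mouse embryonic fibroblasts (MEFs) at day 3. In these MEFs doxycycline switches on MKOS, a cassette that encodes c-Myc, Klf4, Oct4 and also Sox2, and all of them had been infected with a retrovirus for Smad3CA, a constitutively active form of SMAD3. SMAD3 was immunoprecipitated from cells given 1 µg/ml doxycycline (Dox+, n = 3) and from cells without it (Dox-, n = 3), OCT4 from Dox+ cells alone (n = 3), and input DNA was sequenced in 2 replicates per condition. Per the methods of the study, the cassette sat in the Sp3 locus under a tetracycline-responsive promoter, with the transactivator driven from a CAG promoter, and the mice had a mixed genetic background. No library here came from cells without Smad3CA, and endogenous SMAD3 and Smad3CA cannot be told apart in these peak lists. A larger share of cells bound and a higher occupancy per cell cannot be told apart either, and fibroblast identity could not be checked against marker transcripts because no RNA was measured in these samples.

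SNAIL factors (Snai1, Snai2), ZEB factors (Zeb1, Zeb2) and TWIST factors (Twist1, Twist2), together with the homeodomain factor PRRX1, are the regulators through which epithelial cells turn mesenchymal. SNAIL and ZEB proteins are zinc-finger repressors that bind E-boxes and silence epithelial genes such as Cdh1, while TWIST proteins are basic helix-loop-helix factors of mesoderm and connective tissue. TGF-β is a classical inducer of this program, and its signal reaches the genome through SMAD2/3 with SMAD4. Reprogramming of fibroblasts passes through the opposite change, a mesenchymal-to-epithelial transition in which these genes are silenced. The comparison of Dox+ with Dox- cells asks whether SMAD3 binding at these genes differed once MKOS was induced.

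SMAD3 peaks lay over the starts of these genes in either condition. The merged lists, called by the authors on the pooled replicates of a group, held 11 SMAD3 peaks in the windows of 6 of the 7 genes in Dox+ cells and 13 in the windows of all 7 in Dox- cells. Of all protein-coding windows, 52.5% held a merged Dox+ peak and 47.9% a merged Dox- peak. Dox+ merged peaks lay over an annotated transcript start of 6 of the 7 genes (all but Zeb1), beside 38.5% of all protein-coding genes. Dox- merged peaks lay over a start of all 7, beside 33.2%. Any annotated start counted, and genes with more starts, such as Zeb2 with 29 and Zeb1 with 11, had more chances. The Zeb1 Dox- peak began 28 bp past the gene start and covered only a later annotated start. The Dox- start peaks of Zeb1 and Twist1 were weak, with −log10 q-values of 0.939 and 0.897. This value was below 1 for 5 of the 13 Dox- peaks and 1 of the 11 Dox+ peaks. At a q-value up to 0.01, 5 genes kept a merged peak in Dox+ and 3 in Dox-. The share of all windows at this threshold was not computed, so these 2 counts cannot be set against a background. A single merged OCT4 peak was found, in an intron of Zeb1, and 4.85% of all protein-coding windows held one. These shares rise with window length, since 38.4% of windows under 30 kb and 62.6% of windows over 100 kb held a merged Dox+ peak. Of the 7 windows, 3 are under 30 kb, 2 over 100 kb and the other 2 in between. The merged peaks in the windows had a median fold of 2.12 in Dox+ (1.42 to 4.68) and of 2.22 in Dox- (1.82 to 4.40), and the medians over all merged peaks were 2.30 and 2.32.

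The sequences just upstream of the gene starts are shown because merged SMAD3 peaks reached into them. The peaks centered upstream of the start at Twist1 and Twist2 and downstream of it at Snai1, Prrx1 and the Zeb2 gene start. The RefSeq promoter table (GRCm38.p6, the assembly of mm10) had entries for 5 of the 7 genes, not for Snai2 or Zeb1. The table had 8 starts for these genes, and 6 are shown. The 2 left out are neighboring Zeb2 starts with overlapping sequences, chr2:45113280-45113479 and chr2:45113254-45113453, each overlapped by a merged peak in Dox+ and by none in Dox-. For the others the 200 bases before the start are given 5′ to 3′ on the strand of the gene. Capitals mark matches, on either strand, to the SMAD half-site CAGAC, the SMAD GC box GGCGC, the AP-1 site TGANTCA, the octamer ATGCAAAT, the KLF site GGGNGTGG and the E-box CACCTG. The Snai1 sequence is chr2:167537995-167538194 on the plus strand, Twist1 chr12:33957471-33957670 on the plus strand and Twist2 chr1:91801261-91801460 on the plus strand. Prrx1 is chr1:163313651-163313850 on the minus strand, the Zeb2 gene start is chr2:45117443-45117642 on the minus strand, and a second Zeb2 start inside the gene is chr2:45110278-45110477 on the minus strand. Each of these 6 sequences was overlapped by a merged SMAD3 peak in Dox+ and by another in Dox-.
Snai1: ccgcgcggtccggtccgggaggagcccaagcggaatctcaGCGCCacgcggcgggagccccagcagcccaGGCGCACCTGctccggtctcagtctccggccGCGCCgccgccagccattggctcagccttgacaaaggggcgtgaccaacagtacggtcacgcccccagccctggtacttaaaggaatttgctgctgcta
Twist1: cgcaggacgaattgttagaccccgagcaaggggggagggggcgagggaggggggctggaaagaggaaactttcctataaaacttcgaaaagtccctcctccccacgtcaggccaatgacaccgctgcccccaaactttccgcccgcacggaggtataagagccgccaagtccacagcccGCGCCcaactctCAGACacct
Twist2: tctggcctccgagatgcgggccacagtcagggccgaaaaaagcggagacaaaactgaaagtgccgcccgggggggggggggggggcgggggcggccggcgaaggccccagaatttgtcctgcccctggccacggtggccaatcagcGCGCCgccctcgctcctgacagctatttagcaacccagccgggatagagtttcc
Prrx1: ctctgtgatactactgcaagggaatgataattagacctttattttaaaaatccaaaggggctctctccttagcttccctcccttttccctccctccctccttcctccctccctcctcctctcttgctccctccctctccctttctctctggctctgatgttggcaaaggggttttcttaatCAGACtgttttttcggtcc
Zeb2, gene start: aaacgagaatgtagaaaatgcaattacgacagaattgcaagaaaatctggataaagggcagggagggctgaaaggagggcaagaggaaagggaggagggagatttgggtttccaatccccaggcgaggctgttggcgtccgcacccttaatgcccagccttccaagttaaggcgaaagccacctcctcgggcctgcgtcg
Zeb2, internal start: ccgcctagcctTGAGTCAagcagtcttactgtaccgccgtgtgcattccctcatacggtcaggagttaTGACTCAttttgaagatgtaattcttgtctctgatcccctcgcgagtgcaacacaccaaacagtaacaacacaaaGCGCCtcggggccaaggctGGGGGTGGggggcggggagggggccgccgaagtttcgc
The Snai1 sequence held 3 GC boxes and an E-box, of which the second GC box and the E-box share 1 base. The Twist1 sequence held 1 half-site and 1 GC box, Twist2 1 GC box and Prrx1 1 half-site, while none of the 6 motifs was found at the Zeb2 gene start. The internal Zeb2 start held 2 AP-1 sites, 1 GC box and 1 KLF site. Among 32851 RefSeq promoters cut to the same 200 bases, 35.5% held the half-site, 29.6% the GC box, 5.48% the AP-1 site, 13.8% the KLF site, 13.9% the E-box and 1.38% the octamer. A match is a description of the sequence and not evidence of a bound site.

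The replicate lists behind the merged ones differed widely in length, and this bears on every value below. In Dox+ cells the SMAD3 lists of replicates 1, 2 and 3 held 420, 23981 and 10374 peaks, and in Dox- cells 1656, 18588 and 4038. In the 7 windows they held 0, 19 and 12 peaks in Dox+ and 1, 24 and 5 in Dox-. Replicate 1 of Dox+ thus had no peak at any of these genes, although it had peaks at Smad7 and Skil, feedback genes of the TGF-β pathway whose windows were covered in all 6 lists (0.533% and 0.835% in this replicate). Of the merged peaks in the windows, 6 of 11 in Dox+ and 5 of 13 in Dox- were found in a replicate list other than replicate 2. Joining overlapping peaks of all SMAD3 lists gave 29 loci in the windows. Of these, 15 were in at least 1 replicate list of each condition, 5 in Dox+ lists alone and 9 in Dox- lists alone. The same split over all SMAD3 loci was not computed. With lists of such unequal length, these counts are not a result about these genes.

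**Figure D1:**
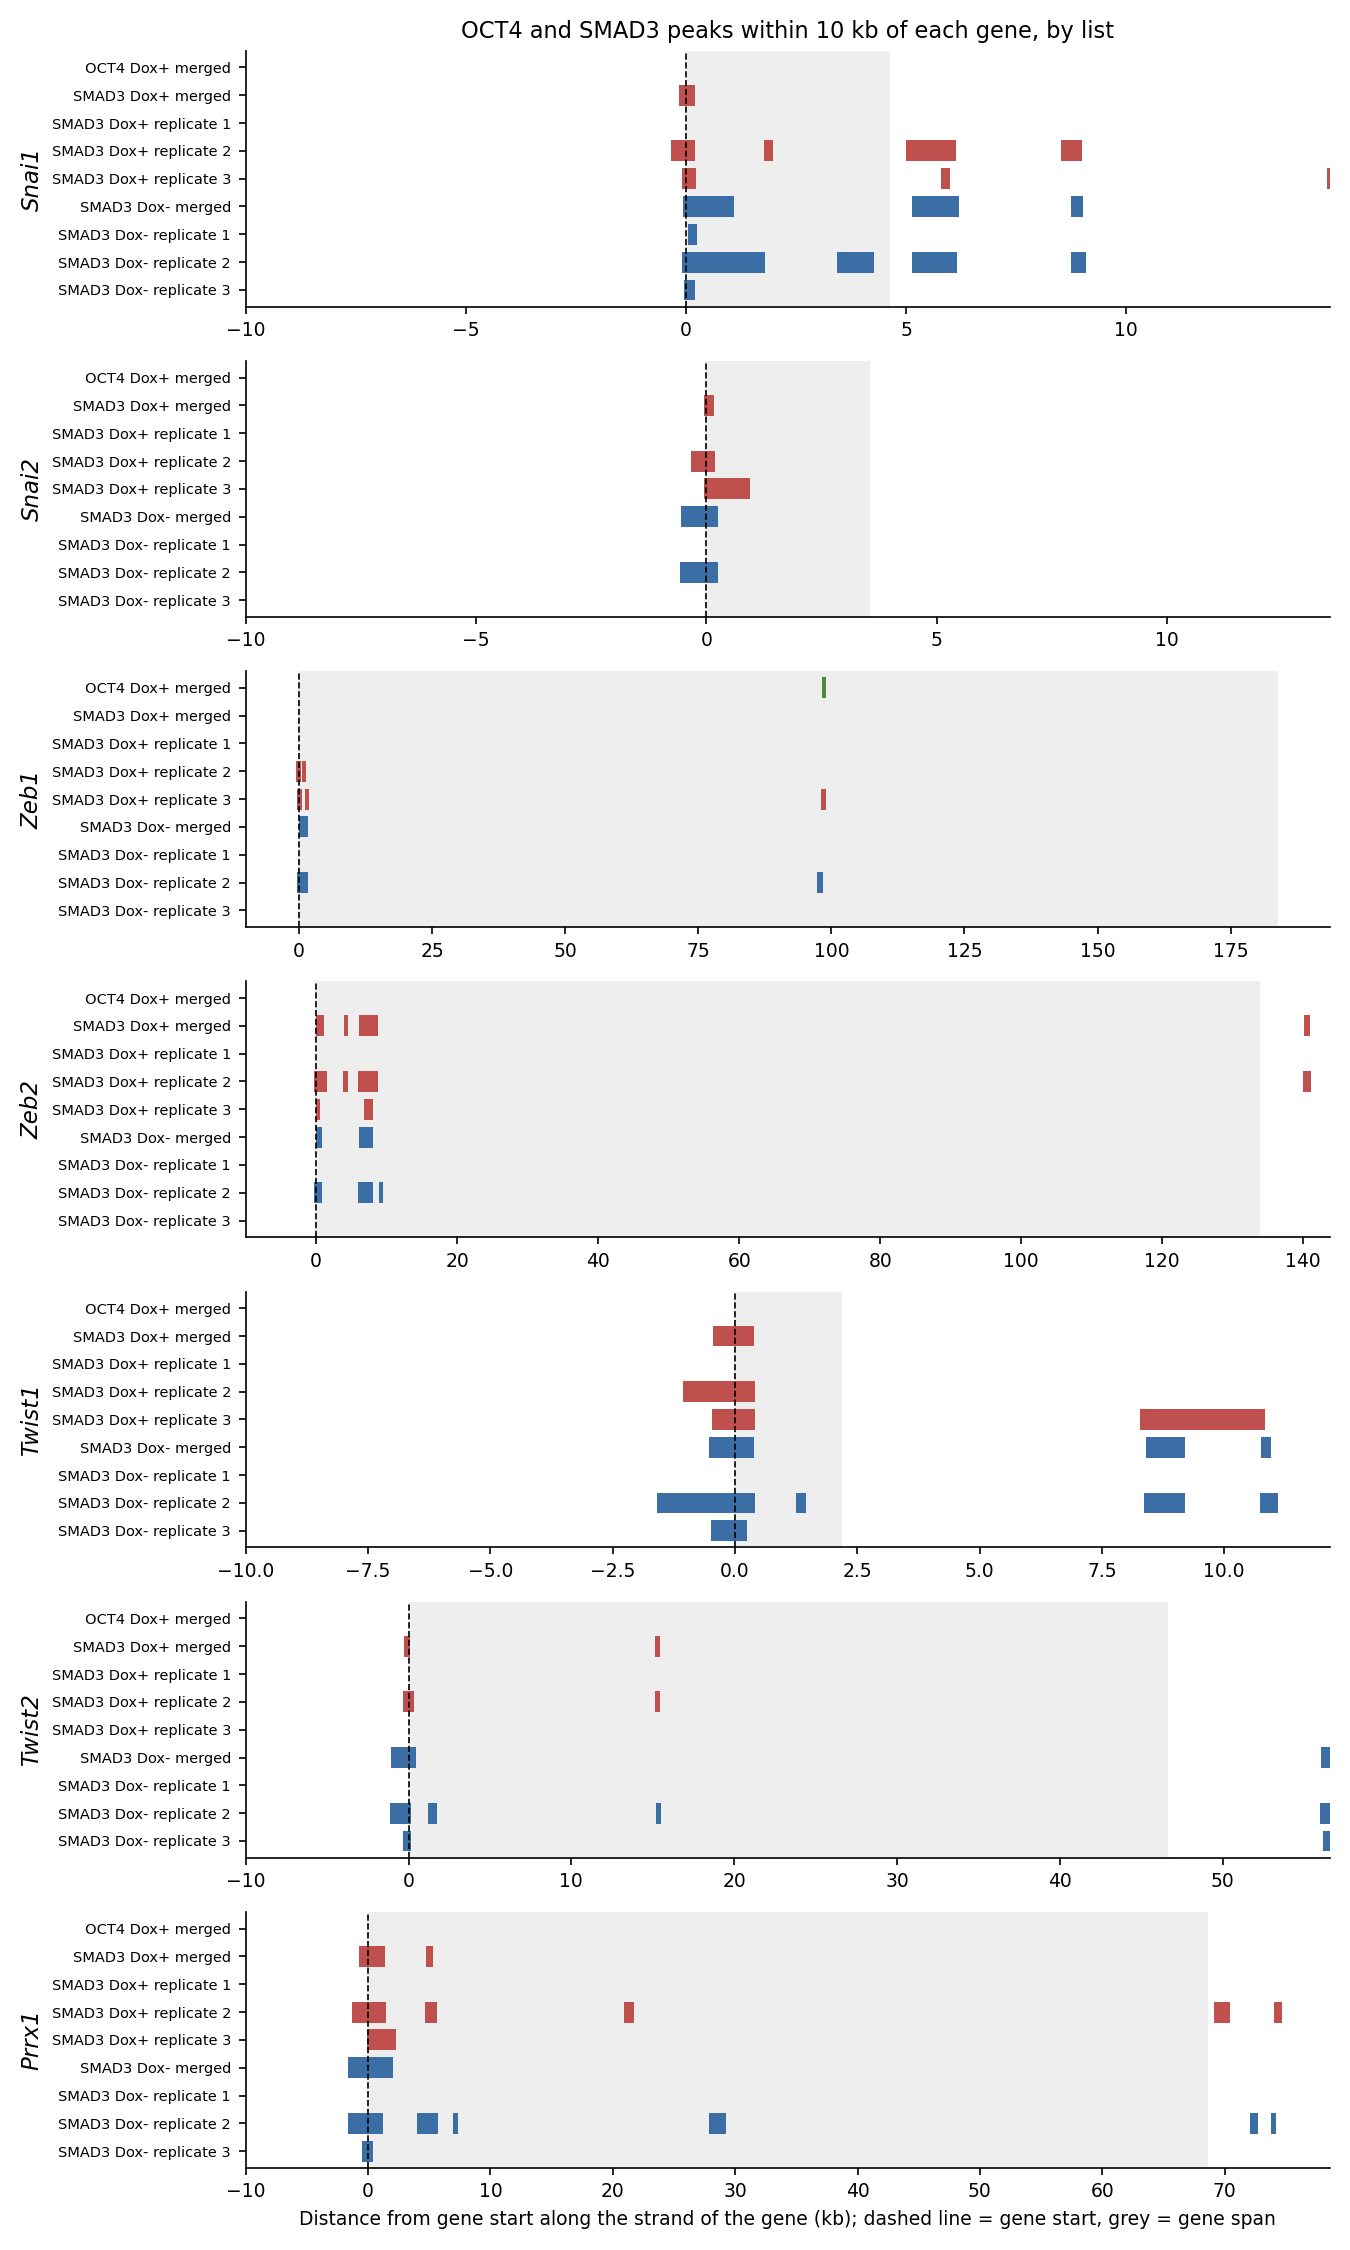
SMAD3 peaks (red, Dox+; blue, Dox-) and merged OCT4 peaks (green) by list, drawn by distance in kb from the start of each gene along its strand, with the gene span in grey and the gene start dashed; very narrow peaks are drawn at a minimum width. Lists of replicates 2 and 3 have peaks at most gene starts, and those of replicate 2 also at many places elsewhere. The row of Dox+ replicate 1 is empty at all 7 genes, and the single OCT4 peak lies deep in Zeb1.

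Of the 29 loci, 9 lay over an annotated start and 20 elsewhere in the windows. The 9 start loci were in the Dox+ lists of replicates 1, 2 and 3 in 0, 9 and 7 cases, and in the Dox- lists in 1, 8 and 4 cases. The 20 other loci were in 0, 8 and 4 of the Dox+ lists and in 0, 16 and 1 of the Dox- lists. At least 3 of the 6 lists held 8 of the 9 start loci, whereas 12 of the 20 others were in a single list. Start loci were also wider, with a median of 2015 bp (up to 3986 bp) against 819 bp (up to 2823 bp), and richer in G and C in their central 200 bp, with a median of 60.5% (50% to 82%) against 47.8% (33% to 63%). Loci were joined over all lists, so a locus in more lists tends to be wider. A wider locus is also more likely to cover a start. Medians over all SMAD3 loci were not computed, so these contrasts are not shown to be particular to these genes. The values describe loci that share libraries, and no test was made over them.

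**Figure D2:**
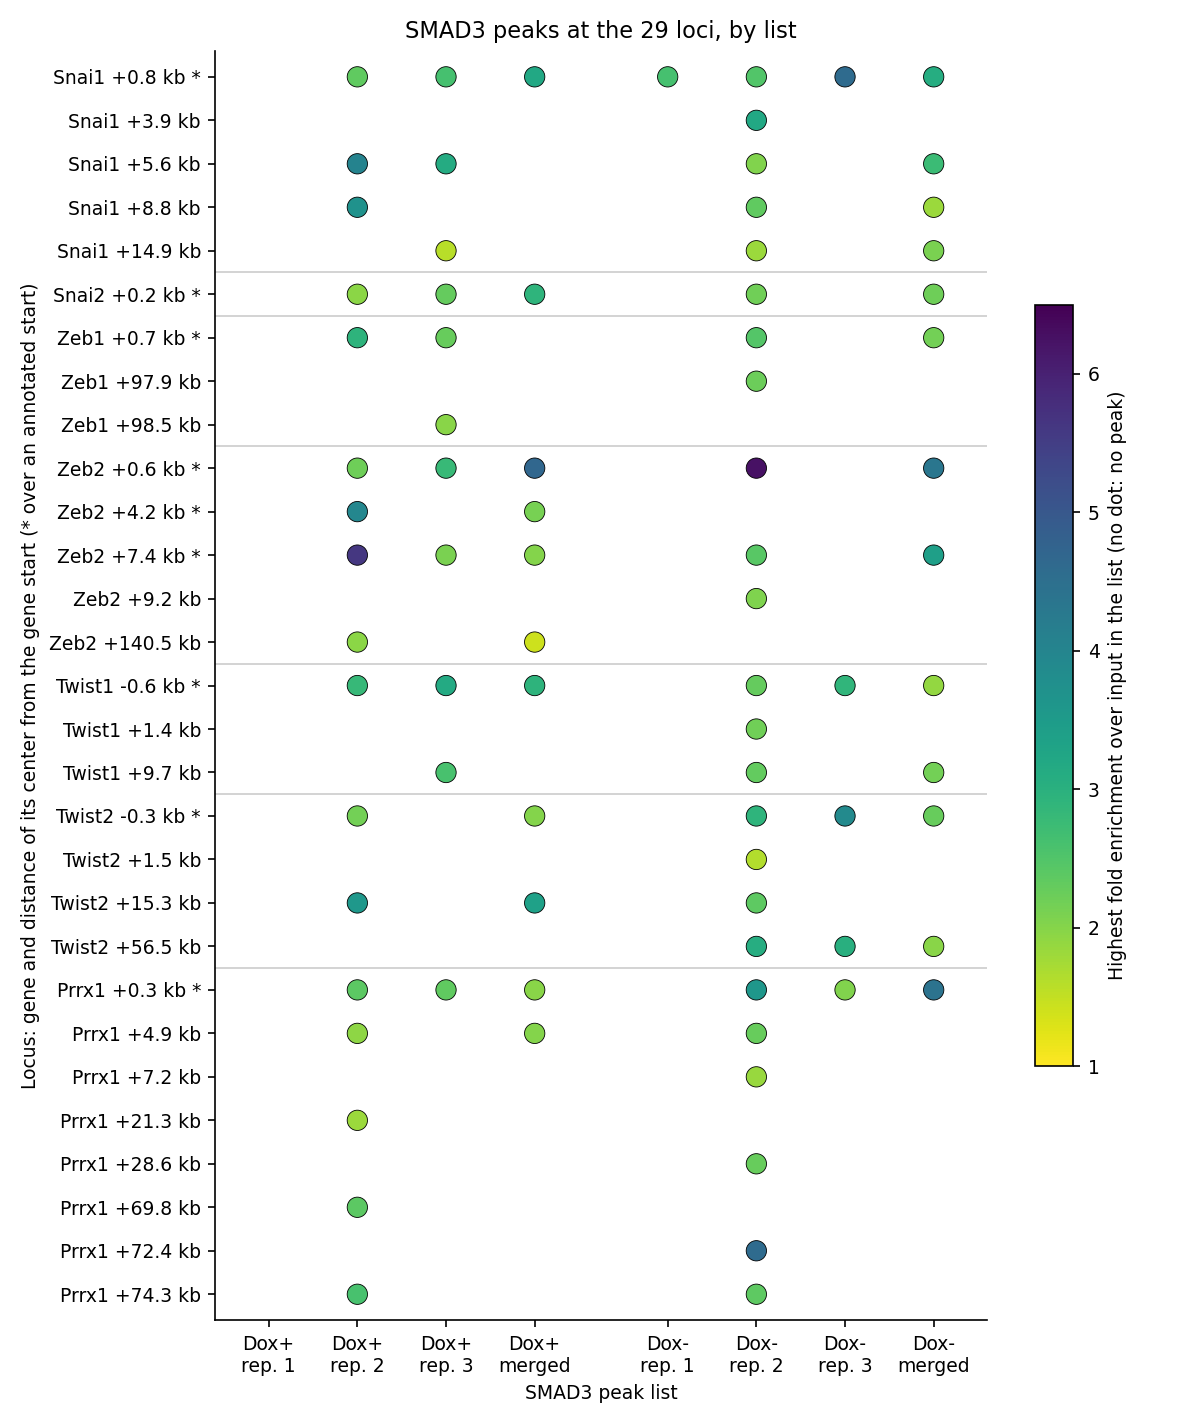
Highest fold enrichment over input of the SMAD3 peaks of each list (columns) at the 29 loci (rows, named by gene and by the distance in kb of the locus center from the gene start, an asterisk marking loci over an annotated start). Empty positions are lists without a peak. The start loci fill more columns than the others, and Snai1 is the only gene with a dot under Dox- replicate 1.

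Snai1, a SNAIL repressor and an early target of TGF-β in many epithelial cells, had a start locus with a SMAD3 peak in 5 of the 6 replicate lists. The peak of Dox- replicate 1 began 36 bp past the start, and the other 4 covered it. The merged Dox+ peak at chr2:167538028-167538406 had a fold enrichment of 3.21 over input, and the merged Dox- peak at chr2:167538123-167539285 one of 3.09. In the replicate lists the fold at this locus was 2.35 and 2.63 in Dox+ replicates 2 and 3, and 2.62, 2.48 and 4.59 in Dox- replicates 1, 2 and 3. The ranges overlap. No other locus of the 7 genes was in all 3 Dox- lists. Another 4 loci followed from 3.85 to 14.9 kb past the start, 3 of them with a peak in either condition. SMAD3 peaks covered 0%, 9.64% and 2.15% of the window in Dox+ replicates 1 to 3 and 0.853%, 16.7% and 1.03% in Dox-. The means, 3.93% ± 5.06 and 6.20% ± 9.11 (SD, n = 3 each), differed by less than the spread between replicates (exact two-sided permutation test, p = 0.8).

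Snai2, which encodes the SNAIL factor SLUG of neural crest, had a single locus, over its start. The merged peaks were chr16:14705804-14706026 in Dox+, with a fold of 2.93, and chr16:14705306-14706100 in Dox-, with a fold of 2.22. The locus was in Dox+ replicates 2 (fold 1.95) and 3 (2.30) and in Dox- replicate 2 (2.19) alone. The window was covered to 0%, 2.22% and 4.18% in Dox+ and to 0%, 3.45% and 0% in Dox-. The groups overlapped, and the mean of 2.13% ± 2.09 in Dox+ was not distinguishable from 1.15% ± 1.99 in Dox- (SD, n = 3 each; exact permutation test, p = 0.7).

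Zeb1, a zinc-finger repressor in mutual repression with the miR-200 family, was the gene without a merged SMAD3 peak in Dox+. Its start locus nonetheless had peaks in Dox+ replicates 2 (fold 2.95) and 3 (2.27) as well as in Dox- replicate 2 (2.48). The merged Dox- peak, chr18:5591888-5593478, had a fold of 2.17 and also covers an exon of Gm10125, a transcript overlapping the Zeb1 start. Peaks covered 0%, 0.195% and 0.469% of this long window in Dox+ and 0%, 1.48% and 0% in Dox-. The means of 0.221% ± 0.235 and 0.495% ± 0.857 (SD, n = 3 each) did not differ beyond this spread (exact permutation test, p = 1).

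The intron of Zeb1 held the only OCT4 peak of the 7 windows. It spanned chr18:5690334-5690508, 98.6 kb past the gene start and 40.7 kb from the nearest annotated transcript start, with a fold of 5.64 and a −log10 q-value of 4.98. None of the 3 OCT4 replicate lists held a peak in any of the 7 windows, so this peak was called on the pooled reads alone. Of the 3185 windows over 100 kb, Zeb1 and Zeb2 among them, 18.8% held a merged OCT4 peak. No merged SMAD3 peak overlapped it, but a short peak of SMAD3 Dox+ replicate 3, with a fold of 1.97, did. A Dox- replicate 2 peak lay just before it, at chr18:5689245-5690202, with a fold of 2.24.

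In the deposited signal matrices, which give the coverage of the pooled ChIP minus that of the pooled input, the central 200 bp of the Zeb1 OCT4 peak had a mean OCT4 score of 19.3. Over all 2083 entries of the merged OCT4 list the mean was 23.2. A single fragment was worth a score of 2.04 in this track. The value was thus a mean depth of 9.48 fragments after input was subtracted, not a count of fragments. The SMAD3 score was 5.66 in Dox+ (mean net depth 3.39) and 3.73 in Dox- (mean net depth 1.69). Over all entries the means were 8.13 and 0.229. The Dox- score at Zeb1 was above that of 91.9% of the entries and the Dox+ score above that of 36.1%. The pooled tracks have no replicate error, and both SMAD3 means are net depths below 4. A difference between the conditions therefore could not be assessed here.

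**Figure D3:**
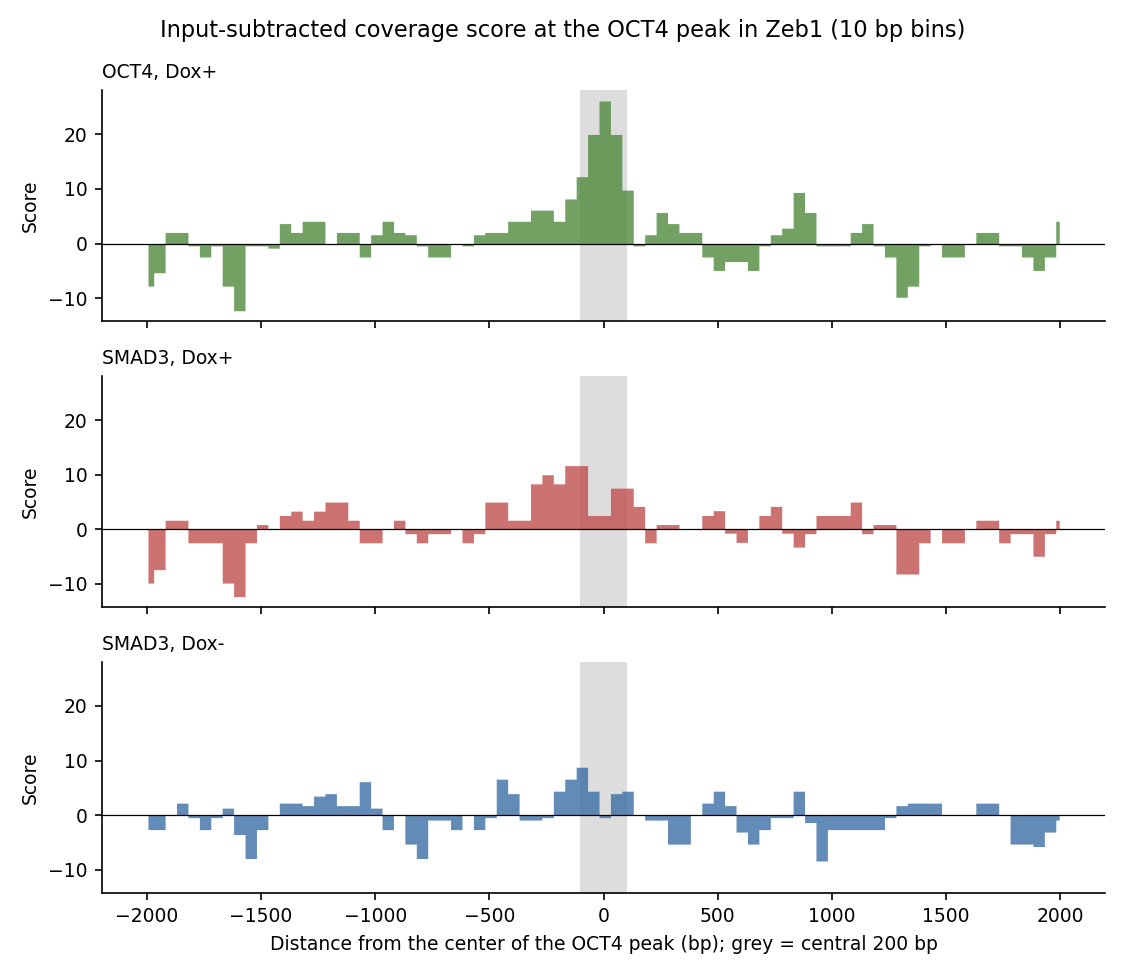
Input-subtracted coverage score in 10 bp bins around the center of the OCT4 peak in Zeb1, for the pooled OCT4 Dox+, SMAD3 Dox+ and SMAD3 Dox- libraries on a common axis, with the central 200 bp in grey. The OCT4 track has its highest bins at the center, with a mean of 19.3 over the grey span, where the SMAD3 means are 5.66 in Dox+ and 3.73 in Dox-.

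Zeb2, the partner of Zeb1, which binds activated SMAD proteins, is transcribed from 29 annotated starts, and 3 of its 5 loci lay over starts. The peak at the gene start had the highest fold of the 7 genes in the merged Dox+ list, but not in the replicate lists. It spanned chr2:45116255-45117466 with a fold of 4.68, and its counterpart in Dox-, chr2:45116604-45117463, had a fold of 4.34. In the replicate lists it had folds of 2.22 and 2.79 in Dox+ replicates 2 and 3 and of 6.25 in Dox- replicate 2. At the internal start, a locus centered 7.41 kb past the gene start whose upstream sequence, shown above, holds 2 AP-1 sites, the order was the opposite in replicate 2, with 5.63 in Dox+ and 2.42 in Dox-. There the merged peaks were chr2:45108671-45111329 (fold 2.02) in Dox+ and chr2:45109347-45111336 (fold 3.41) in Dox-. These folds are the peak caller's averages over peaks of unequal width and have no replicate error of their own.

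Another start locus of Zeb2, with the merged Dox+ peak chr2:45112924-45113354 (fold 2.12), was the only start locus of the 7 genes without a Dox- peak. It was in Dox+ replicate 2 alone and overlaps an exon of the antisense transcript Zeb2os. A weak Dox+ peak (fold 1.42, −log10 q-value 0.772) lay between genes past the 3′ end of Zeb2. The window was covered to 0%, 4.26% and 1.21% in Dox+ and to 0%, 2.40% and 0% in Dox-. The mean of 1.82% ± 2.19 was not distinguishable from 0.80% ± 1.39 (SD, n = 3 each; exact permutation test, p = 0.7).

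Twist1, a basic helix-loop-helix factor of cranial mesenchyme, had a start locus in Dox+ replicates 2 and 3 (folds 2.81 and 3.15) and in Dox- replicates 2 and 3 (2.30 and 2.90). The merged peaks, chr12:33957222-33958065 in Dox+ and chr12:33957147-33958058 in Dox-, nearly coincided and had folds of 2.94 and 1.89. A wide locus 9.70 kb past the start was in Dox+ replicate 3 (fold 2.60) and Dox- replicate 2 (2.32). The merged Dox- list split it into 2 peaks, of which chr12:33966077-33966875, with a fold of 2.18, was the stronger. Twist1 had the highest mean cover of the 7 windows in either condition. It was 0%, 6.71% and 15.5% in Dox+ and 0%, 15.5% and 3.26% in Dox-, and the groups overlapped almost entirely. The means were 7.41% ± 7.78 and 6.24% ± 8.16 (SD, n = 3 each; exact permutation test, p = 0.8).

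Twist2, the Twist1 paralog of dermis and connective tissue, had 2 of the 3 sites in these windows that the authors' table of differential SMAD3 binding lists. Its start locus was in Dox+ replicate 2 (fold 2.17) and in Dox- replicates 2 and 3 (2.92 and 3.89). The merged peaks were chr1:91801181-91801532 in Dox+ (fold 2.02) and chr1:91800364-91801894 in Dox- (fold 2.27), and they also cover an exon of the antisense transcript Gm29100. An intronic peak 15.3 kb past the start, chr1:91816624-91816860, was the strongest of the gene in Dox+ with a fold of 3.37, and Dox- replicate 2 had a peak of fold 2.37 there. A locus 56.5 kb past the start was in Dox- replicates 2 and 3 (3.07 and 3.02) and in no Dox+ list. Cover was 0%, 1.32% and 0% in Dox+ and 0%, 4.14% and 1.36% in Dox-. The Dox- mean of 1.83% ± 2.11 exceeded the Dox+ mean of 0.441% ± 0.763 (SD, n = 3 each), but the groups shared the value 0 and the difference was not beyond the spread (exact permutation test, p = 0.4).

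Prrx1, a homeodomain factor of limb and craniofacial mesenchyme and a mark of stromal fibroblasts, had 8 loci, more than any other of the 7 genes. Its start locus was in Dox+ replicates 2 and 3 (folds 2.38 and 2.35) and in Dox- replicates 2 and 3 (3.58 and 2.04). The merged Dox- peak chr1:163311693-163315311, at a fold of 4.40, had the highest fold of the 7 genes in the merged Dox- list, though not in the replicate lists. The merged Dox+ peak chr1:163312346-163314462 had a fold of 1.97, and a second Dox+ peak 5011 bp past the start, chr1:163308433-163308964, one of 2.01. Of the other 7 Prrx1 loci none was in a replicate 1 or replicate 3 list, and 2 were in the replicate 2 lists of both conditions. Cover was 0%, 7.40% and 2.69% in Dox+ and 0%, 8.09% and 1.00% in Dox-. The means of 3.36% ± 3.74 and 3.03% ± 4.41 (SD, n = 3 each) differed by less than the spread (exact permutation test, p = 1).

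**Figure D4:**
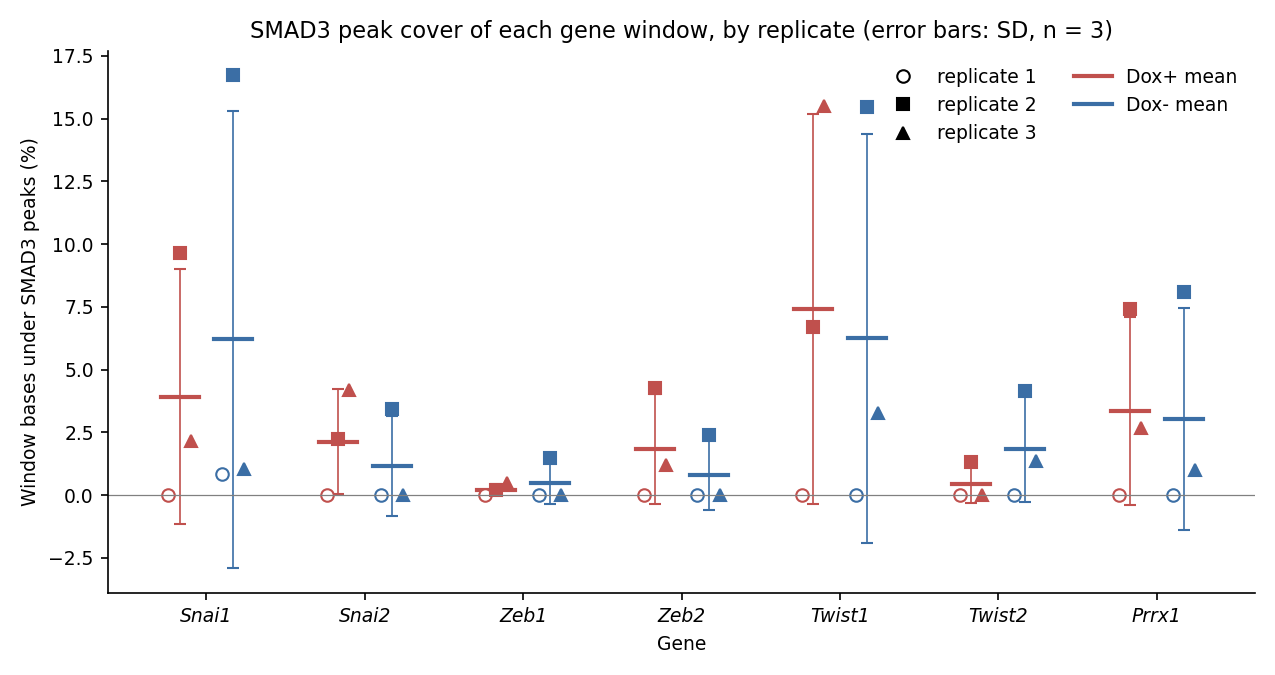
Percentage of the bases of each gene window under SMAD3 peaks in the Dox+ (red) and Dox- (blue) replicate lists, with the mean as a bar and the SD (n = 3) as a whisker. Replicate 1 (open circles) is at 0 for all genes except Snai1 in Dox-, and Dox+ and Dox- points overlap for all 7 genes.

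The cover of a window did not separate the conditions at any of the 7 genes. The Dox+ mean was the higher for Snai2, Zeb2, Twist1 and Prrx1 and the Dox- mean for Snai1, Zeb1 and Twist2. Without Dox- replicate 2, which has the longest Dox- list, the Dox- mean was higher for 1 gene, Twist2, and without Dox+ replicate 2 it was higher for 5. Of the 14706 protein-coding genes with SMAD3 cover in any list, 74.4% had a higher mean in Dox+ and 25.6% in Dox-. With 3 lists against 3, p cannot go below 0.1, and every adjusted p was 1 for these genes (exact permutation test, Benjamini-Hochberg over the 14706 genes). All 3 Dox+ values lay above all 3 Dox- values at 0.143% of the genes and below them at 0.0272%, and at none of the 7. Because the labels do not say whether replicates were separate cultures, the p-values measure only the spread between these samples.

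Read counts at single sites, as the authors' DiffBind table summarizes them, gave 3 sites in the windows, all lower in Dox+. Regions with a peak in at least 2 of the 6 SMAD3 replicate lists were rebuilt as the set the authors tested, and 16 of the 13217 lay in the windows: 4 at Snai1, 3 each at Twist2 and Prrx1, 2 each at Zeb2 and Twist1, and 1 each at Snai2 and Zeb1. Of these 16, 3 were listed as lower in Dox+ and 0 as higher, and 13 were not listed. Over all rebuilt regions 6.84% were listed as lower and 8.9% as higher. By gene, 2 of the 7 windows held a site lower in Dox+ beside 3.84% of all protein-coding windows, and 0 held a higher one beside 6.64%. With so few regions these counts are a description. A listed site of OCT4 against SMAD3 was in 9.07% of all windows and in none of these.

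The listed sites are at Twist2 and Snai1, and the table gives group means without replicate values. The first, chr1:91857451-91858552, lies between genes, 9973 bp past the 3′ end of Twist2. Its authors' mean was 1.60 in Dox+ and 3.75 in Dox- on the log2 scale of normalized reads, a difference of -2.15, and only Dox- lists had a peak there. The second, chr1:91800330-91801823, lies over the Twist2 start, with means of 2.96 and 4.56 and a difference of -1.60. The third, chr2:167543190-167544347, lies 954 bp past the 3′ end of Snai1, with means of 2.69 and 4.10 and a difference of -1.41. There the replicate lists and the merged lists differed. Dox+ replicates 2 and 3 had peaks with folds of 4.04 and 3.14 and Dox- replicate 2 one with a fold of 2.04, whereas the merged Dox- list had a peak there (fold 2.76) and the merged Dox+ list had none. Among the 904 sites lower in Dox+ the median difference was -1.78, and the 3 sites ranked 260, 596 and 735 by size.

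The central 200 bases of the listed sites are shown because they are the only places at these genes where group mean SMAD3 read levels were listed as different. They are on the plus strand of the same assembly, with capitals as above. The ranges are chr1:91857901-91858100 for the Twist2 downstream site, chr1:91800976-91801175 for the Twist2 start site and chr2:167543668-167543867 for the Snai1 downstream site.
Twist2, downstream: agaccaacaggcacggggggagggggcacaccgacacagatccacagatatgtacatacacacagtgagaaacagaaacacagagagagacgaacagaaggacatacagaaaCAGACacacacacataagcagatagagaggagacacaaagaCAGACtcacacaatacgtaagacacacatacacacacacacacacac
Twist2, start: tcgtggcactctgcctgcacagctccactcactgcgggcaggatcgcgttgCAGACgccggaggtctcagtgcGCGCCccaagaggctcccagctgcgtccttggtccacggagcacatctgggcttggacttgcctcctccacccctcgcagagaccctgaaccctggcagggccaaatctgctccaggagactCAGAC
Snai1, downstream: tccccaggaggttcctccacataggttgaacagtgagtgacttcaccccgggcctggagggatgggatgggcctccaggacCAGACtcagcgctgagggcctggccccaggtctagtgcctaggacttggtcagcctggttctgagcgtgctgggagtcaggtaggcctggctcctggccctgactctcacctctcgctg
The SMAD half-site occurred 2 times in each Twist2 sequence and 1 time in the Snai1 sequence. The Twist2 start site also held 1 GC box, and none of the AP-1, octamer, KLF and E-box motifs was found in these sequences. The downstream Twist2 sequence is a run of CA-rich repeats. Among the 13217 rebuilt regions, 35.6% held the half-site and 44.9% the GC box in their central 200 bases.

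Apart from Zeb1, the nearest merged OCT4 peak lay far from each gene start. It was at 246.4 kb for Prrx1, 262.6 kb for Twist1 (in an intron of Hdac9), 598.1 kb for Snai1, 642.3 kb for Zeb2, 900.1 kb for Twist2 and 1586 kb for Snai2. OCT4 replicate 2 had a peak 35.4 kb from the Snai2 start that the merged list did not hold. Prrx1, with 16988 bp under peaks summed over the 6 SMAD3 lists, was the most covered of the genes in bases. The genes whose covered bases over the 6 lists were most like it were Aen, Zmiz1 and Isg20, at Euclidean distances of 0.545, 0.547 and 0.581 on the scale of log2 of bases plus 100. Their windows were kept apart from that of Prrx1 but not from each other, so they may share peaks.

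Other genes of the program were counted in the same way. Of 22 genes, comprising 10 other mesenchymal transition factors, 9 repressors of the program and 3 mesenchymal targets, 16 had a merged SMAD3 peak in Dox+ and 14 in Dox-, beside 52.5% and 47.9% of all protein-coding windows. These counts hold the miR-200c and miR-141 genes, which share a window and its peaks, as 2 genes. The miR-200a, miR-200b and miR-429 genes also share a window, without a merged peak, and were each counted. The microRNA windows were about 20 kb long, and the share of windows with a peak rises with length. Merged OCT4 peaks were in the windows of 3 (4.85% of all windows), namely Tcf4 (fold 3.69), Klf8 (fold 9.19) and Fn1 (fold 6.06). The windows of Tcf4 and Klf8 were 365.7 and 178.7 kb long, and 18.8% of windows over 100 kb held a merged OCT4 peak. The Fn1 window was 87.7 kb long, and 3.42% of windows from 30 to 100 kb held such a peak. Tcf4 encodes an E-protein partner of TWIST, and it was the single gene with a listed site higher in Dox+ (6.64% of all windows), while it also had a lower one (3.84% of all windows). Sox9 and Fn1, the latter encoding fibronectin, each had a listed site lower in Dox+, as did the feedback gene Smad7, which like Skil had merged SMAD3 peaks in either condition. Among the repressors, Ovol2 (fold 3.07) and Grhl2 (fold 2.11), which keep cells epithelial, had a merged SMAD3 peak in Dox+ alone, in each case with cover in Dox+ replicate 2 only. The window of the miR-200c and miR-141 genes had a peak of fold 2.39 in Dox+ and 3.41 in Dox-. Vim, encoding the mesenchymal filament vimentin, had a peak in each condition, with folds of 3.08 and 1.98.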

How the data were processed

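OCT4 and SMAD3 peaks were taken from MACS2 lists that the authors called on each replicate and on pooled (merged) replicates against pooled inputs. Beforehand the authors had trimmed the reads, aligned them to mm10 with Bowtie 2 and removed duplicates, reads with a mapping quality under 40 and blacklisted reads, which leaves repeats poorly covered. Narrow OCT4 peaks used a q-value of 0.01 and broad SMAD3 peaks a cutoff of 0.1. The deposited lists give each peak's fold enrichment over input, a linear ratio, and its −log10 q-value, both averaged over the region for broad peaks by the authors' caller. The authors' deposited DiffBind tables hold log2 group means, folds, p-values and false discovery rates for sites past a rate of 0.1 and a log2 fold of 1 in size, and only positions and group means were used. The deposited matrices hold a signed score, the authors' pooled ChIP coverage minus input coverage, each scaled to a mean genome coverage of 1. Per the submitters' processing notes, MACS2 2.1.0, DiffBind 1.16.3, deepTools 2.2.3, Picard 2.3.0, SAMtools 1.3, bedtools 2.25.0 and Trimmomatic 0.36 were used.

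The 13 samples were grouped by antibody and doxycycline as labelled. The labelled dose was kept, although the study's methods give a lower one for reprogramming in general. Read depth per library is unknown from the peak lists, so list lengths are given instead, and the precision of single peaks rests on counting error and on 3 replicates. Covered bases per window were compared by exact two-sided permutation tests with Benjamini-Hochberg adjustment (threshold 0.05), after tests on simulated data. The regions tested by DiffBind were rebuilt by joining overlapping replicate peaks, and all 2080 listed sites matched a rebuilt region. Every merged OCT4 peak and listed site was named, with, per gene, the merged SMAD3 peak of highest fold in each condition and any over a transcript start. Members, windows and lists were chosen with earlier results of these data known. Python 3.11.15, numpy 2.4.6, pysam 0.24.0, samtools 1.23.1 and matplotlib 3.10.9 were used. Alternatives varied the flank, the q-value, replicate support, the peak center, the scaling of the lists and the replicates included. Gapped-peak lists were not used here.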

Additional observations from a re-analysis of the deposited data

How the results depend on the processing

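No count here has a test, and shares over all windows were not computed under these alternatives. The peak counts moved most. With no flank the windows held 8 merged Dox- SMAD3 peaks and 1 gene with a site lower in Dox+, and with 50 kb flanks 20 merged Dox- peaks. At a q-value up to 0.01 the merged lists held 6 Dox+ peaks at 5 genes and 4 Dox- peaks at 3 genes. Peaks in at least 2 replicate lists numbered 6 in Dox+, at 5 genes, and 5 in Dox-, at 4 genes. No OCT4 replicate list held a peak in the windows, so the OCT4 count was 0 peaks and 0 genes in that setting and, by construction, without any OCT4 replicate, which says nothing about single replicates. The SMAD3 merged lists were not called again without a replicate either. Setting aside 1 replicate list, merged peaks found in another replicate list numbered 6 to 11 in Dox+ and 5 to 13 in Dox-. Genes with such a Dox- peak numbered 4 to 7, and the lowest values came with replicate 2 set aside.

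The number of genes with the lower mean cover in Dox+, 3 of 7, became 5 as a share of each list's bases. Leaving out Dox- replicate 2 gave 1 gene, and leaving out Dox+ replicate 2 or 3 or Dox- replicate 1 or 3 gave 5. Without replicate 1 of both groups, an alternative chosen after seeing the data, it was 3. Of 91 single-gene differences under all alternatives, 70 kept their direction, 18 reversed and 3 were 0, and Twist2 was lower in Dox+ in all 13 settings. These settings include treating shared replicate numbers as a block. That changes the test and not the difference, so its values kept their direction by construction. Reversed differences in percentage points were -0.386 for Twist1 with no flank, and 0.969 for Snai1, 0.0650 for Zeb1 and -1.06 for Prrx1 at the stricter q-value. With each list cut to at most its 1656 strongest peaks they were -1.09 for Twist1 and -0.229 for Prrx1. Dox+ replicate 1, with 420 peaks, stayed shorter than the others in this setting. As bases per 10000 list bases they were -0.141 for Twist1 and -0.811 for Prrx1. Leaving out 1 replicate gave -5.13 to 2.99 for Snai1, -0.0390 to 2.13 for Snai2, -0.521 to 0.221 for Zeb1, -0.193 to 1.94 for Zeb2, -2.89 to 5.78 for Twist1 and -1.69 to 2.86 for Prrx1. The cause of these reversals was not tested, and no test could pass the threshold.

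As a replicate block, the shared replicate numbers left the count at 3 genes by construction, with p from 0.5 to 1 (exact sign-flip test, smallest possible 0.25). Deviations from the group means correlated across 14706 genes at r = 0.728, 0.663 and -0.297 for replicates 1, 2 and 3. Dox+ replicate 3 correlated best with Dox- replicate 2 (0.374). Because the lists differ widely in length, these correlations cannot decide whether samples of the same number shared a culture or batch.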
